A study of Mus musculus with 6 samples.

Results

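The thioredoxin system was measured through 10 genes, which were picked by name from the deposited table of 57010 genes. They were the thioredoxins Txn1 and Txn2, the thioredoxin reductases Txnrd1 and Txnrd2, and the peroxiredoxins Prdx1, Prdx2, Prdx3, Prdx4, Prdx5 and Prdx6. Each name matched 1 row of the table, and all 10 genes passed the filter on low counts, which kept 18114 genes. RNA came from monocytes of C57BL/6 mice (C57Bl/6J in the study's methods) at 1 year of age, isolated from the marrow of the femur (libraries S13, S15 and S18) or of the mandible (S16, S19 and S23) with a magnetic kit that holds back other cells. The labels name no engineered allele and no treatment beyond this isolation. Both sexes were used in the study, but the labels do not give the sex, animal or batch of a library, and it is not stated whether the 3 libraries of a site came from separate mice. The p-values therefore measure the spread between these libraries. Since the samples were bulk RNA, fewer cells of a type and less RNA per cell cannot be told apart in any value below.

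Thioredoxins are small proteins that reduce disulfide bonds in other proteins, and thioredoxin reductases, which are selenoproteins, recharge them with electrons from NADPH. Peroxiredoxins use a reactive cysteine to break down hydrogen peroxide, and most of them are then recharged by thioredoxin. The system is doubled between compartments. Txn1, Txnrd1, Prdx1, Prdx2 and Prdx6 work mainly in the cytosol, Txn2, Txnrd2 and Prdx3 in mitochondria, Prdx4 in the endoplasmic reticulum, and Prdx5 in mitochondria, peroxisomes and the cytosol. In marrow, Prdx2 is best known as an abundant protein of red blood cells, and hydrogen peroxide is a signal in the differentiation of monocytes to osteoclasts.

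The catalytic codons show what the 2 thioredoxins and the typical 2-Cys peroxiredoxins share although they are separate genes. The stretches below are from the coding sequences of the principal GENCODE M21 transcripts. Capitals mark the in-frame match to GGNCCNTGN in the thioredoxins, the glycine, proline and second cysteine codons of the active site, and to TGNCCNACN in the peroxiredoxins, which opens with the codon of the peroxidatic cysteine. The thioredoxin motif was found once in each coding sequence, at codon 33 of Txn1 and codon 91 of Txn2. The peroxiredoxin motif was found once each in Prdx1 to Prdx4, at codons 52, 51, 109 and 127, and not in frame in Prdx5 or Prdx6, whose reactive cysteines lie in another sequence.
Txn1: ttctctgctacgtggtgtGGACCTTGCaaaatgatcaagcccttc
Txn2: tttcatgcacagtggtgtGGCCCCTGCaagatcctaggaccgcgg
Prdx1: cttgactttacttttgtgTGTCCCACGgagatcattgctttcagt
Prdx2: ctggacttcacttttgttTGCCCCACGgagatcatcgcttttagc
Prdx3: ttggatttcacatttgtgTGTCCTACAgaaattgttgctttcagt
Prdx4: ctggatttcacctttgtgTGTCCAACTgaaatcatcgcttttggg

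The coding sequences of Txn1 and Txn2 were identical at 63.2% of the bases of the shorter one, those of Txnrd1 and Txnrd2 at 62.4%, and those of Prdx1 and Prdx2 at 70.5%. No window of 50 bases, the read length of the study, was shared between 2 of the 10 genes. Windows shared with other annotated transcripts, on either strand, made up 0% in Txnrd1, Prdx3 and Prdx4, 2.50% in Txn1, where they matched the pseudogene Txn-ps1, and up to 15.5% in Prdx5, where they matched the neighbour Trmt112. Prdx2 shared 12.04% of its windows, among others with Tdpx-ps1, Prdx2-rs3 and the opposite-strand genes Junb and Rnaseh2a. Prdx1 shared 8.81%, among others with the gene models Gm7204 and Gm21399. Whether the counting used strand is not given in the sources used here, so reads in these shared stretches cannot be told apart. The rows picked by name as pseudogenes or close copies (Txn-ps1, Prdx1-ps, Prdx2-ps1, Prdx2-ps2, Prdx6-ps2 and Prdx6b) held at most 20 counts in any library. Any member held at least 154. Counts of Tdpx-ps1, Prdx2-rs3, Gm7204 and Gm21399, which this choice by name did not take in, were not compared.

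On GRCm38, Txn1 lies on the minus strand of chromosome 4 from 57943373 to 57956411 and Prdx1 on the plus strand of chromosome 4 from 116685544 to 116700822. Txn2 lies on chromosome 15 (77915047 to 77929006, minus), Txnrd1 on chromosome 10 (82833951 to 82897712, plus) and Txnrd2 on chromosome 16 (18426384 to 18479073, plus). Prdx2 lies on chromosome 8 (84969587 to 84974834, plus), Prdx6 on chromosome 1 (161240112 to 161251219, minus) and Prdx4 on the X chromosome (155323918 to 155340754, minus). Prdx3 (60864051 to 60874556) and Prdx5 (6906697 to 6910106) are both on the minus strand of chromosome 19. All 10 are protein-coding genes, and the counts cover all of their annotated exons, UTRs included. The length used for counting, the summed length of those exons, ran from 1051 bases in Txn1 to 7086 bases in Txnrd1. It equalled the principal transcript in Txn1 and Prdx3, genes with 1 annotated transcript, and was 2.13 times the principal transcript in Prdx4.

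The libraries held 15718782 to 25371474 counts on genes. All 8 monocyte markers on the list used here were above 1 CPM in every library (counts relative to the library's total, scaled by the trimmed mean of M values, TMM), with Csf1r at 157 to 450 CPM and Ccr2 at 369 to 849 CPM. Markers of other cells were present too, and some of these lists separated the skeletal sites. Summed over 8 mesenchymal and osteoblast markers the level was 126 to 160 CPM in the femur and 8027 to 12300 CPM in the mandible, and over 5 dental epithelium markers 0.221 to 2.76 CPM and 5756 to 11270 CPM. Megakaryocyte and platelet markers (7 genes) were at 553 to 879 CPM in the femur and 74.8 to 107 CPM in the mandible. The sum of 6 B and plasma cell markers overlapped between the sites, at 276 to 713 CPM in the femur and 199 to 352 CPM in the mandible, with none called. Neutrophil and erythroid markers are given beside Prdx5 and Prdx2. Femur library S15 stood apart, with 13454 genes that had counts in no other library, against 77 to 417 in the others, and 1.49 counts per kilobase over 2005 olfactory and vomeronasal receptor genes, against 0.0288 to 0.154. Mandible library S23 was the only library without counts from 4 Y-linked genes, which had 2772 to 4590 counts elsewhere. Xist, an X-linked RNA of female cells, was at 1602 CPM in S23 and at 0 to 0.606 CPM in the other libraries. By these values S23 came from female cells, and all femur libraries, S16 and S19 held male RNA. Sex was thus not balanced between the sites. With S23 as the only female library, sex cannot be told apart from other traits of S23, and its part in the fold changes was not tested. The fold changes of the 10 genes are therefore also given without S15 and without S23.

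Txn1, the cytosolic thioredoxin, was lower in mandibular-derived monocytes. It was measured at 125 CPM in S13, 80.9 CPM in S15 and 123 CPM in S18 of the femur, and at 38.0 CPM in S16, 57.4 CPM in S19 and 39.2 CPM in S23 of the mandible. Every mandible library lay below every femur library. The femur mean was 110 ± 25.2 CPM and the mandible mean 44.8 ± 10.9 CPM (SD, 3 libraries each). The log2 fold change, with the femur as baseline, was -1.29 (standard error 0.29, 95% interval -1.92 to -0.67), a level 2.45-fold higher in the femur (Benjamini-Hochberg adjusted p = 0.023 over all tested genes by the quasi-likelihood test of edgeR). Leaving out S15 kept the call, and leaving out any other library lost it. Without S15 the log2 fold change was -1.52 (adjusted p = 0.0042), without S23 it was -1.26 (adjusted p = 0.084), and without any one of the remaining 4 libraries the adjusted p was 0.050 to 0.11 (edgeR's quasi-likelihood test).

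**Figure D1:**
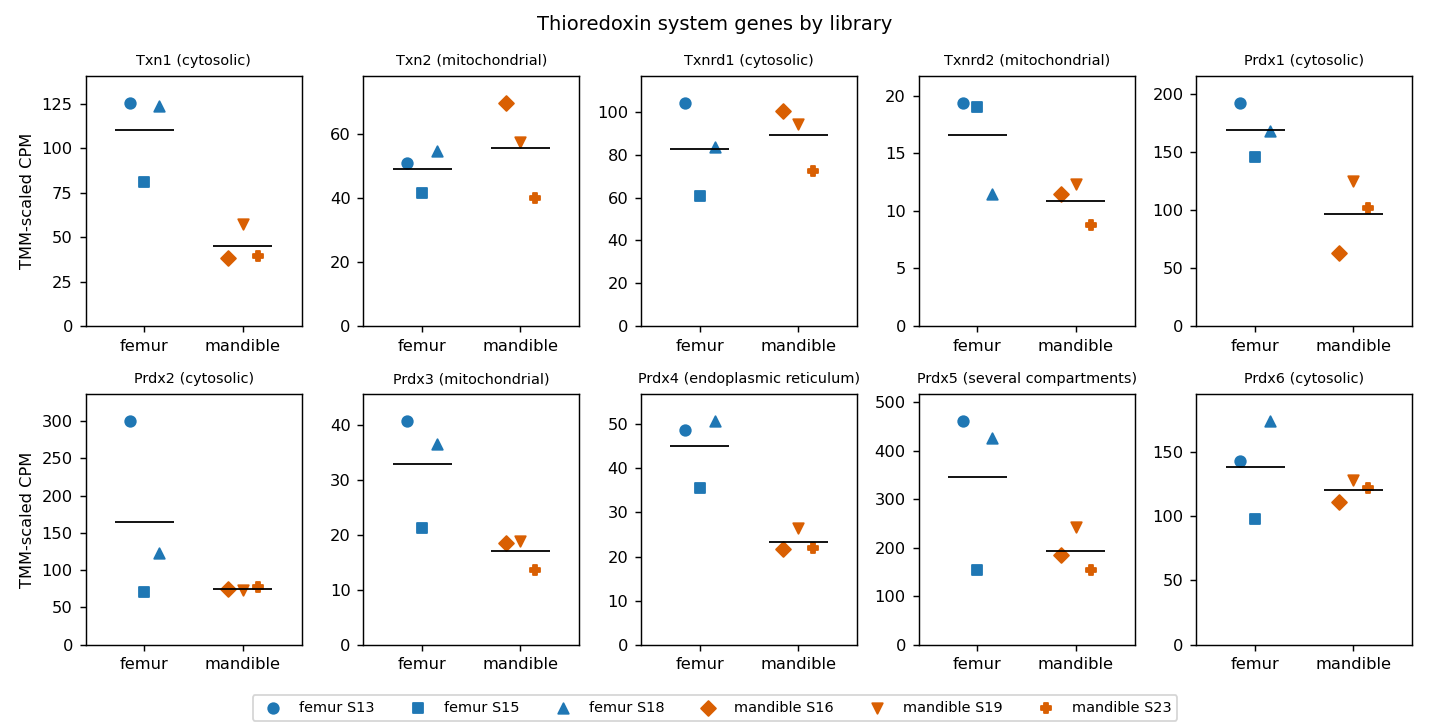
TMM-scaled CPM (vertical axes, linear from 0, a separate scale for each gene) of the 10 genes in the 3 femur and 3 mandible libraries, 1 point per library, with black lines at the group means. The groups do not overlap in Txn1, Prdx1, Prdx3 and Prdx4, and in Prdx2 femur library S13 lies far above the other 5 libraries.

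Txn1 was the only one of the 10 genes called, which took an adjusted p under 0.05 together with a change of 2-fold or more, and it was called lower, as were 1.3% of all tested genes. None of the 10 was called higher, as were 3.88% of all tested genes. The calls without S15 given below were made where 1565 genes were called, against 938 with all libraries. An unadjusted p under 0.05 with a lower level in the mandible was found in 5 members (Txn1, Prdx1, Prdx2, Prdx3 and Prdx4), where the share over all tested genes was 7.25%. In 4 members (Txn1, Prdx1, Prdx3 and Prdx4) every mandible library lay below every femur library, against 11.5% of all tested genes. The log2 fold change was below 0 in 8 members, against 52.2% of all tested genes. The median log2 fold change was -0.82 over the members and -0.038 over all tested genes. A single gene cannot reach an exact permutation p below 0.1 with 3 against 3 libraries, and Txn1, Prdx1, Prdx3 and Prdx4 were at that limit (exact permutation of log2 CPM between the sites, two-sided).

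Txn2, the mitochondrial thioredoxin, had 51.1, 41.7 and 54.6 CPM in femur libraries S13, S15 and S18 and 69.9, 57.6 and 39.9 CPM in mandible libraries S16, S19 and S23. The groups overlapped, with the lowest and the highest value both in the mandible. The log2 fold change was 0.18 (95% interval -0.43 to 0.80, adjusted p = 0.85, edgeR's quasi-likelihood test), 0.032 without S15 and 0.32 without S23. The interval covers higher, equal and lower levels in the mandible.

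The ratio of counts of Txn2 to Txn1 within a library, which does not depend on the scaling of libraries, separated the sites. It was 0.407 in S13, 0.515 in S15 and 0.443 in S18 of the femur, and 1.84 in S16, 1.00 in S19 and 1.02 in S23 of the mandible. In the femur Txn1 had more counts than Txn2 in every library, and in the mandible the counts of Txn2 equalled or exceeded those of Txn1. These counts are not scaled by gene length. Per kilobase of length Txn1 stayed above Txn2 in the mandible, at 36.1, 54.6 and 37.3 against 16.6, 13.7 and 9.49 CPM per kilobase in S16, S19 and S23. The excess depended on the length used. Per kilobase of the principal transcript, Txn2 was at 34.1, 28.1 and 19.5, close to Txn1 in S16, while Txn1 kept its values. The mean ratio was 2.73-fold higher in the mandible, a difference of 1.45 on the log2 scale (p = 0.1 by exact two-sided permutation, which cannot go lower with 3 against 3, and 0.2 after adjustment over the 4 ratios computed). Txn1 is 1051 and Txn2 4208 bases long in the count table, and with the length correction described further on the difference was 0.98. Leaving out 1 library gave 1.16 to 1.597.

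The reductases recharge the thioredoxins, and neither was called. Txnrd1, the cytosolic enzyme, was at 104, 60.8 and 83.4 CPM in S13, S15 and S18 and at 100.4, 94.4 and 72.5 CPM in S16, S19 and S23. The groups overlapped, with a log2 fold change of 0.11 (95% interval -0.50 to 0.71, adjusted p = 0.92, edgeR's quasi-likelihood test) that was -0.12 without S15 and 0.18 without S23. Txnrd2, the mitochondrial enzyme, was at 19.4, 18.98 and 11.5 CPM in the femur and 11.5, 12.3 and 8.81 CPM in the mandible. Femur library S18 lay within the mandible values, and the log2 fold change was -0.61 (95% interval -1.46 to 0.24, adjusted p = 0.52, edgeR's quasi-likelihood test), -0.55 without S15 and -0.54 without S23. The ratio of Txnrd2 to Txnrd1 counts was 0.186, 0.312 and 0.138 in the femur and 0.114, 0.131 and 0.122 in the mandible. All mandible ratios lay below the femur ratios, by 0.71 on the log2 scale in the mean (exact two-sided permutation test, p = 0.1, adjusted 0.2). Without S15, the femur library with the highest ratio, the difference was -0.39.

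**Figure D2:**
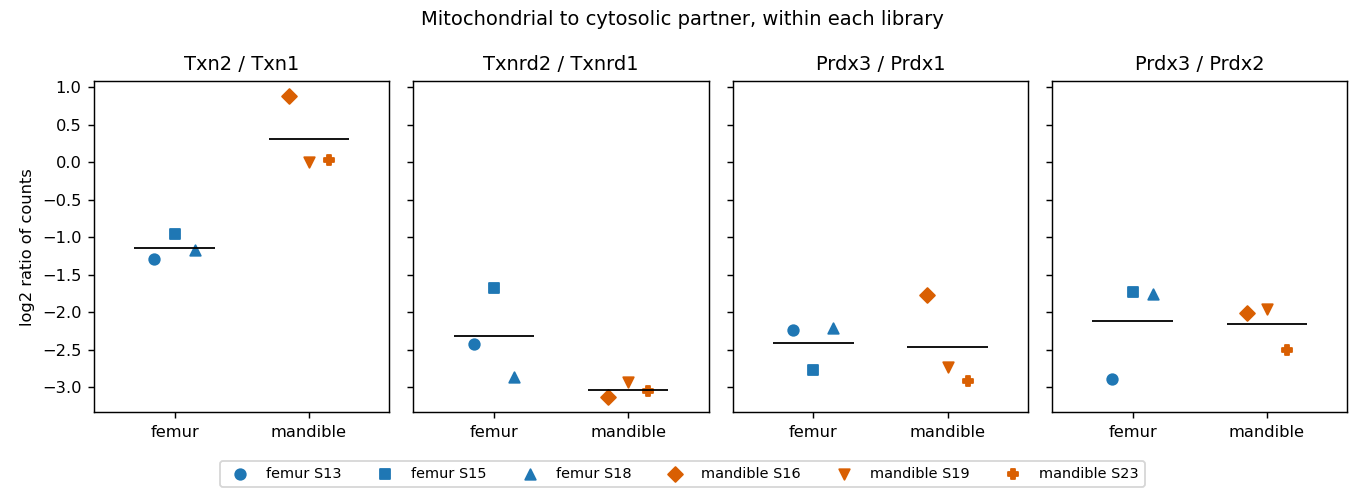
Log2 ratio of counts (vertical axis, shared) of a mitochondrial gene to its cytosolic partner in each library, for 4 pairs of genes, with black lines at the group means. The Txn2 to Txn1 ratio lies between -1.30 and -0.96 in the femur and between 0.006 and 0.88 in the mandible, and both Prdx3 ratios overlap between the sites.

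Prdx1 and Prdx2 are the cytosolic 2-Cys peroxiredoxins. Prdx1 was at 192, 145 and 168 CPM in S13, S15 and S18 and at 62.8, 125 and 101 CPM in S16, S19 and S23. The groups did not overlap, with the smallest gap between femur library S15 and mandible library S19. Its log2 fold change was -0.80 (standard error 0.30, 95% interval -1.46 to -0.15), which did not pass the adjusted threshold (adjusted p = 0.18, edgeR's quasi-likelihood test), nor did it when any 1 library was left out (adjusted p 0.083 to 0.55). It was -0.94 without S15 and -0.89 without S23.

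Prdx2 was at 299.98 CPM in S13, 70.4 CPM in S15 and 123 CPM in S18, and at 74.1, 73.1 and 76.6 CPM in S16, S19 and S23. The mandible libraries lay close together, while the femur libraries spread more than 4-fold and S15 lay below all mandible libraries. The log2 fold change was -1.14 (95% interval -2.10 to -0.18, adjusted p = 0.20, edgeR's quasi-likelihood test). It was -0.37 without S13 (adjusted p = 0.90), -1.55 without S15 (adjusted p = 0.015) and -1.21 without S23 (adjusted p = 0.33), so that it rested on the choice of femur libraries. Summed over 9 erythroid markers, hemoglobin genes included, S13 held 1631 CPM, and S15 and S18 held 244 and 288 CPM. The mandible libraries held 107 to 187 CPM in this sum. S15 thus lay above all mandible libraries in the erythroid sum but below all of them in Prdx2. All 9 erythroid markers had a log2 fold change below 0, against 52.2% of all tested genes, with a median of -1.82, against -0.038. Of these markers, 4 were called lower, against 1.3% of all tested genes. No erythroid marker was at 0 in any library, and the part of red cell precursors in the Prdx2 value was not tested.

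Prdx3, the mitochondrial peroxiredoxin, was at 40.7, 21.3 and 36.4 CPM in the femur and 18.5, 18.8 and 13.5 CPM in the mandible. The groups did not overlap, with S15 nearest to the mandible. The log2 fold change of Prdx3 was -0.95 (standard error 0.34, 95% interval -1.70 to -0.21, adjusted p = 0.17, edgeR's quasi-likelihood test), and without S15 it was -1.23 and called (adjusted p = 0.034), while without S23 it was -0.87 (adjusted p = 0.31). The mitochondrial Prdx3 thus had an estimate close to those of cytosolic Prdx1 and Prdx2. Its ratio to Prdx1 differed between the sites by -0.063 on the log2 scale (exact two-sided permutation test, p = 0.9) and its ratio to Prdx2 by -0.032 (p = 1 by the same permutation test). With SDs of 0.30 to 0.66 within groups, these ratios leave room for a difference in either direction, and both changed sign when single libraries were left out.

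Prdx4, the peroxiredoxin of the endoplasmic reticulum, was at 48.7, 35.6 and 50.8 CPM in the femur and 21.8, 26.4 and 22.0 CPM in the mandible. The groups did not overlap, and Prdx4 had the smallest unadjusted p after Txn1 (0.0059). Its log2 fold change was -0.94 (standard error 0.28, 95% interval -1.55 to -0.33, adjusted p = 0.086, edgeR's quasi-likelihood test). Without S15 the estimate for Prdx4 was -1.13 and called (adjusted p = 0.027), and without S23 it was -0.95 (adjusted p = 0.17). Prdx4 is X-linked, and S23, the only library with high Xist and no Y-linked counts, lay between S16 and S19.

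Prdx5, an atypical 2-Cys peroxiredoxin, was at 461, 153 and 425 CPM in S13, S15 and S18 and at 184, 242 and 153 CPM in S16, S19 and S23. S13 and S18 stood above all mandible libraries, and S15 just below the lowest of them. Its log2 fold change was -0.84 (95% interval -1.71 to 0.027, adjusted p = 0.33, edgeR's quasi-likelihood test). Without S15 it was -1.24 and called (adjusted p = 0.016), without S13 it was -0.58 (adjusted p = 0.85) and without S23 it was -0.75 (adjusted p = 0.50). Summed over 8 neutrophil markers, granule genes such as Ltf and Ngp with S100a8 and S100a9, the level was 32960 CPM in S13, 3842 CPM in S15 and 24050 CPM in S18, and 6954, 10380 and 3927 CPM in S16, S19 and S23. The 6 libraries stood in the same order by Prdx5 as by this sum, across both sites, but S15 and S23 were nearly tied in both. Single markers could give another order. Mpo was highest in S18, at 2897 CPM against 2397 CPM in S13, and S100a9 was lower in S23 than in S15, at 1244 and 1378 CPM. All 8 neutrophil markers had a log2 fold change below 0, against 52.2% of all tested genes, and 1 was called lower, against 1.3%. None of these markers was at 0 in any library. The part of granulocytes in the Prdx5 value was not tested.

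**Figure D3:**
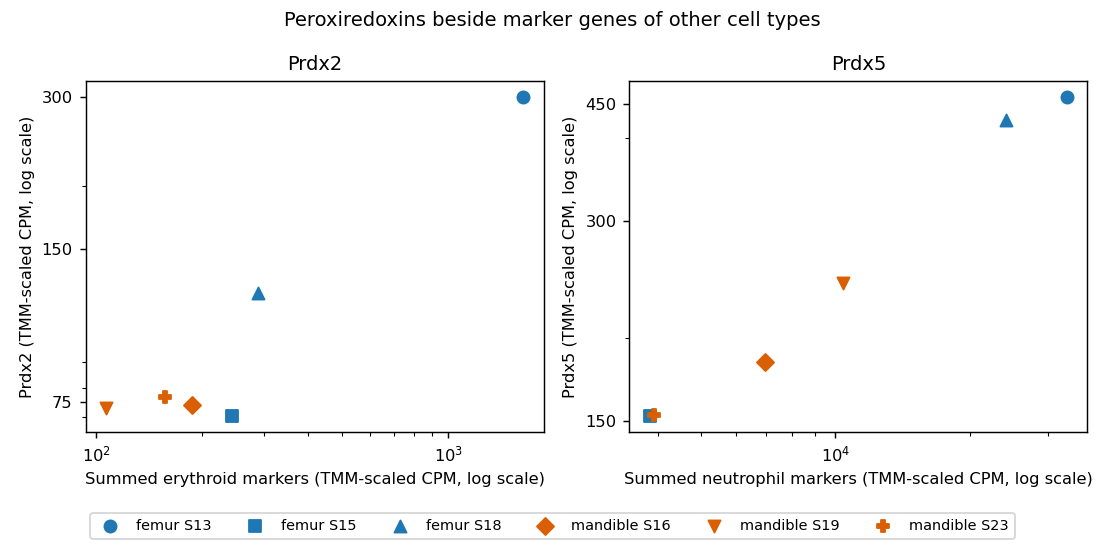
Prdx2 against the sum of 9 erythroid markers (left) and Prdx5 against the sum of 8 neutrophil markers (right), in TMM-scaled CPM on log axes, 1 point per library. Femur library S13 holds the highest value of all 4 measures. Prdx5 and the neutrophil sum put the 6 libraries in the same order, with S15 and S23 nearly tied in both. Prdx2 and the erythroid sum do not, as S15 has the lowest Prdx2 but an erythroid sum above all mandible libraries.

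Prdx6, a 1-Cys peroxiredoxin that also acts on phospholipids and is recharged by glutathione rather than thioredoxin, was at 143, 97.9 and 174 CPM in the femur and 111, 128 and 122 CPM in the mandible. The mandible values lay within the femur range. Prdx6 had a log2 fold change of -0.20 (95% interval -0.80 to 0.40, adjusted p = 0.82, edgeR's quasi-likelihood test), -0.44 without S15 and -0.26 without S23.

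**Figure D4:**
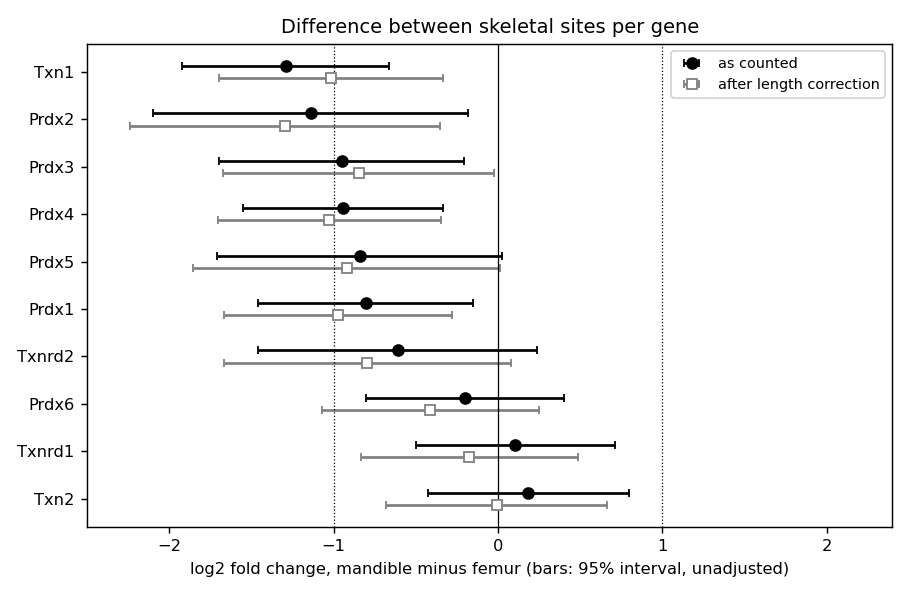
Log2 fold change (horizontal axis, mandible minus femur) of the 10 genes as counted (black) and with the trend of each library over gene length taken out (grey squares), with unadjusted 95% intervals and dotted lines at a fold change of 2. The correction shown uses the length over which reads were counted. The Txn1 estimate moves from -1.29 to -1.02, and those of the other genes but Prdx3 lie lower after this correction.

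The order of the members by fold change followed their length in part. The 3 members with an estimate above -0.5, Prdx6, Txn2 and Txnrd1, were 4804, 4208 and 7086 bases long, and the shortest, Txn1, had the most negative estimate, but Txnrd2, at 4401 bases, had -0.61. Across the 10 genes, which share the same 6 libraries, Spearman's rho of length and log2 fold change was 0.81, against 0.27 over all tested genes, and 0.72 with the length of the principal transcript. Over all tested genes the median log2 fold change was -0.36 in the length decile that holds Txn1 and Prdx3 (787 to 1591 bases), -0.18 in that of Prdx4 and Prdx5 and 0.12 in that of Txnrd1. With the trend of log2 CPM over length taken out of each library, Txn1 was at -1.02 and no longer called (95% interval -1.70 to -0.34, adjusted p = 0.096, edgeR's quasi-likelihood test). The corrected values of Prdx1, Prdx2, Prdx3, Prdx4 and Prdx5 were -0.97, -1.30, -0.85, -1.03 and -0.92, with intervals that lay below 0 in all of these but Prdx5. Txn2 came to -0.007 and Txnrd1 to -0.18. Of the cytosolic members, 3 (Txn1, Prdx1 and Prdx2) were then at -0.97 or lower and 2 (Txnrd1 and Prdx6) at -0.41 or above. The mitochondrial members ran from -0.85 to -0.007, so that the ranges of the compartments overlapped. These values used the table's length. With the principal transcript, Prdx1 to Prdx5 were at -1.01, -1.18, -0.94, -0.69 and -0.73, so Prdx4 and Prdx5 moved up from -0.94 and -0.84 as counted. None of them was called in either correction (adjusted p at least 0.0937, edgeR's quasi-likelihood test).

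**Figure D5:**
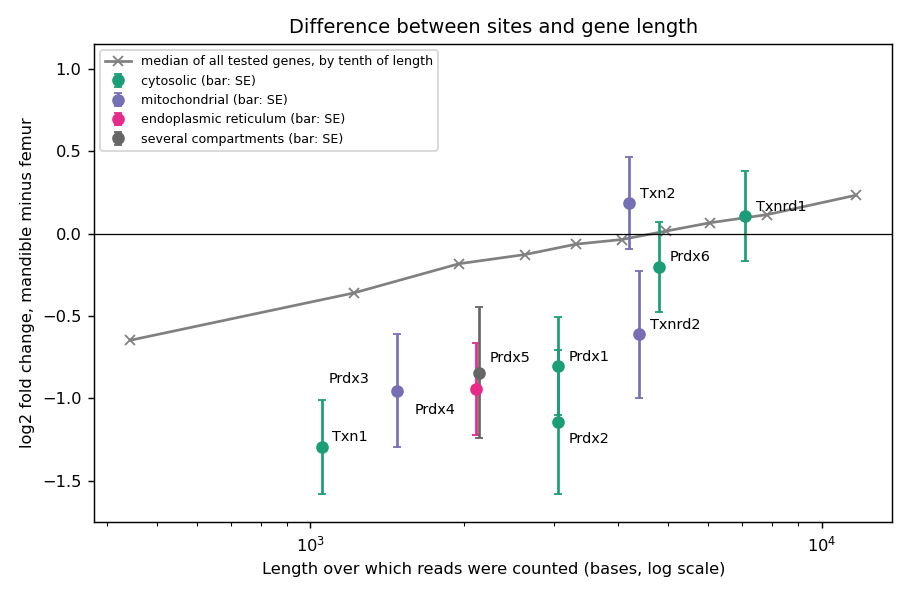
Log2 fold change (mandible minus femur, with standard errors) of the 10 genes against the length over which reads were counted (log axis), coloured by compartment, with the median of all tested genes by length decile as a grey line. Txn1 at 1051 bases is lowest and Txn2 and Txnrd1, at 4208 and 7086 bases, lie above 0, while the grey line runs from -0.65 to 0.23.

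Levels of different genes were compared per kilobase of length. In the femur the order was Prdx5 (162 ± 78.7 CPM per kilobase, SD, n = 3), Txn1 (105 ± 23.9), Prdx1 (55.4 ± 7.75), Prdx2 (53.9 ± 39.4), Prdx6 (28.8 ± 7.93), Prdx3 (22.2 ± 6.89), Prdx4 (21.4 ± 3.92), Txnrd1 (11.7 ± 3.08), Txn2 (11.7 ± 1.59) and Txnrd2 (3.78 ± 1.01). Of neighbours in this order, Txn1 and Prdx1, Prdx4 and Txnrd1, and Txn2 and Txnrd2 had libraries that did not overlap, and the other neighbours overlapped. In the mandible Prdx5 (90.2 ± 21.02 CPM per kilobase) and Txn1 (42.7 ± 10.3) again came first and Txnrd2 (2.47 ± 0.42) last, and Txn2 (13.3 ± 3.58) and Txnrd1 (12.6 ± 2.07) stood above Prdx3 (11.5 ± 2.02) and Prdx4 (11.1 ± 1.25), with overlap from Txn2 to Prdx4. Per kilobase of the principal transcript, a choice made after the data were seen, Txn1 had rank 2 in the femur and rank 4 in the mandible, where Prdx6, Prdx2, Txn1 and Prdx1 lay between 42.1 and 50.4 CPM per kilobase and each overlapped its neighbour. The sum of the 5 cytosolic members was 325, 177 and 261 CPM per kilobase in S13, S15 and S18 and 118, 160 and 131 in S16, S19 and S23. That of the 3 mitochondrial members was 44.1, 28.6 and 40.2 in the femur and 31.7, 29.2 and 20.6 in the mandible. The mitochondrial share of both sums was 11.9, 13.9 and 13.4% in the femur and 21.1, 15.5 and 13.6% in the mandible, and overlapped between the sites. Prdx4 and Prdx5 were in neither sum. Prdx5, which works partly in mitochondria, was at 71.4 to 215 CPM per kilobase, above the mitochondrial sum in every library. The share is therefore not that of the whole system.

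The genes whose pattern over the 6 libraries was closest to that of Txn1, by the root mean square difference of centred log2 CPM, were Coa3 (0.070), Psma6 (0.10), Magoh (0.10), Ccne2 (0.11) and Ssr4 (0.13). Genes chosen in this way share the difference of Txn1 between the sites by construction. Psma6, which encodes a proteasome core subunit, Magoh, an exon junction complex protein, and Ssr4, a protein of the translocon of the endoplasmic reticulum, were called lower, with log2 fold changes of -1.42, -1.31 and -1.32. Coa3, an assembly factor of cytochrome c oxidase, had -1.30 (adjusted p = 0.057, edgeR's quasi-likelihood test). For Prdx2 the closest were Urod (0.17), a heme synthesis enzyme, Mrpl46, Rpl14-ps1, Acp1 and Asns (0.19 to 0.22). None of these 5 was called, and S13 held the highest value of each, as follows from the choice by pattern.

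Other genes linked to thioredoxins by name or function were mostly not called. Of 22 such genes, all tested, 2 were called higher in the mandible and none lower, against 3.88% and 1.3% of all tested genes. An estimate below 0 was found in 11 of them, against 52.2%, and the median log2 fold change was 0.012, against -0.038. Sesn3, a sestrin, was at 8.45, 11.1 and 12.4 CPM in the femur and at 29.7, 41.8 and 61.7 CPM in the mandible and rose by 2.06 on the log2 scale (adjusted p = 0.0057, edgeR's quasi-likelihood test). Msrb3, a methionine sulfoxide reductase, was at 0.66, 2.30 and 0.27 CPM in the femur and 13.7, 14.4 and 37.2 CPM in the mandible (adjusted p = 0.0077, same test). Txnip, which encodes the thioredoxin-interacting protein, was at 251, 163 and 287 CPM in the femur and 297, 298 and 341 CPM in the mandible. The groups of Txnip did not overlap, with a log2 fold change of 0.42 that was not called (adjusted p = 0.57, edgeR's quasi-likelihood test). Rrm1, a subunit of ribonucleotide reductase, an enzyme that thioredoxin recharges, had -0.43 and was not called (adjusted p = 0.68, same test), and neither was Txndc5.

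Of 13 glutathione and glutaredoxin genes, all tested, 1 was called lower and 2 higher, against 1.3% and 3.88% of all tested genes. An estimate below 0 was found in 10 of the 13, against 52.2%, and the median was -0.51, against -0.038. Gpx4, the lipid peroxide reductase, was at 177, 101.1 and 118 CPM in S13, S15 and S18 and at 43.3, 55.9 and 60.2 CPM in S16, S19 and S23, with a log2 fold change of -1.31 (adjusted p = 0.022, edgeR's quasi-likelihood test), close to that of Txn1. Gpx3, a secreted glutathione peroxidase, was higher in the mandible, with 163.8 ± 14.2 against 25.6 ± 8.19 CPM and a log2 fold change of 2.68 (adjusted p = 0.00044, same test), and Gpx7, of the endoplasmic reticulum, was at most 0.55 CPM in the femur and 4.85 to 9.44 CPM in the mandible (adjusted p = 0.048, same test). The mesenchymal and dental epithelium sums given above differ between the sites in the same direction as Sesn3, Msrb3, Gpx3 and Gpx7, and their part in these values was not tested. Gpx1, a cytosolic glutathione peroxidase, was at 1014, 676 and 1268 CPM in the femur and 435, 595 and 479 CPM in the mandible and was not called (log2 fold change -0.97, adjusted p = 0.14, same test), nor was Gsr. None of the 4 superoxide dismutase and catalase genes was called, with log2 fold changes for Sod1, Sod2 and Cat of -0.15, 0.46 and 0.069.

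Txn1, Txnrd1 and Prdx1 are known targets of NRF2, the transcription factor of the antioxidant response. In a list of 11 genes of the NRF2 system that includes these 3, Txn1 was the only one called, as were 1.3% of all tested genes called lower. In this list 6 had an estimate below 0, against 52.2% of all tested genes, and the median log2 fold change was -0.030, against -0.038. Promoters (250 bases before to 50 bases after the start, RefSeq, GRCm38.p6) were matched for 9 of the 10 members, all but Prdx6. The core of the antioxidant response element, TGACNNNGC, searched on both strands, was found in 2 of the 9 members, Prdx1 and Txnrd1, against 14.0% of all 27025 genes with a promoter. Counted by promoter it was in 2 of the members' 11, against 12.4% of all 32851. The matches, which read from the other strand, are shown in capitals because these 2 genes had unlike estimates, -0.80 and 0.11. The printed stretches of 49 bases are the plus strand of chr4:116685446-116685494 for Prdx1 and of chr10:82859094-82859142 for Txnrd1, in 1 of its 3 promoters, and a match of letters is not shown to be a bound site.
Prdx1: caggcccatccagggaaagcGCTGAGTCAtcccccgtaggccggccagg
Txnrd1: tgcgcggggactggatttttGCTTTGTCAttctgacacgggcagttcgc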

How the data were processed

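Monocyte RNA of 6 libraries was analysed. The deposited table holds raw read counts. The authors quality-trimmed the read pairs (Trimmomatic), aligned them to GRCm38 (Hisat2 2.1.0) and counted them per gene with featureCounts, whose version and settings for strand and multiply mapping reads are not given in the sources used here. The length in the table equalled the M21 exon union in all 10 genes, but 9 of its 10 intervals did not lie fully inside the M21 genes. The table may therefore use another build or annotation than the one named, which was not established. Positions were taken from GENCODE M21 (GRCm38) by Ensembl identifier. The submitters' processing notes also name FastQC and edgeR.

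Counts were filtered (filterByExpr, minimum count 10, minimum total count 15), TMM-scaled and tested over all genes with edgeR 4.0.16 in R 4.3.3 (quasi-likelihood, no covariates), with calls at a Benjamini-Hochberg adjusted p under 0.05 with a change of 2-fold or more. DESeq2 1.42.0, limma-voom (limma 3.58.1), other scalings and filters, a length correction (loess, span 0.4, of log2 CPM on log2 length in each library) and each library left out were alternatives. A value of 3 counts was 0.118 to 0.191 CPM. The members, gene lists and tests were chosen with earlier results of these data known. Genes named are the members, in each other list up to 3 most abundant and up to 3 called genes with the largest fold change, the 5 genes closest in pattern to Txn1 and to Prdx2, and pseudogenes or copies of members and, outside this rule and chosen after values were seen, genes that overlap or share sequence with members. Xist was also named outside this rule, for its level in S23. The script was tested on simulated data.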

Additional observations from a re-analysis of the deposited data

How the results depend on the processing

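Txn1 was the one member called lower under RLE scaling, scaling by library totals alone, TMM computed without genes of hemoglobin, immunoglobulin or the mitochondrial genome, a filter at a mean CPM of 1, DESeq2, limma-voom and no fold threshold. With no filter on low counts, 2 members were called lower, Txn1 and Prdx2. With the length correction on the table's length or on the principal transcript, the second added after the data were seen, 0 were called by edgeR, with log2 fold changes of Txn1 of -1.02 and -1.07 (adjusted p 0.096 and 0.074). With 1 library left out, 0 to 5 members were called: 5 without femur S15 (Txn1, Prdx2, Prdx3, Prdx4 and Prdx5) and 0 without any other. Over all genes, 1565 were called without S15, against 938 with all libraries and 434 to 764 without another library. The cause of this was not tested. No member was called higher under any alternative. The number of all genes called was 938, 1590 with no filter, 1758 under DESeq2, and 434 to 1565 with 1 library left out. The log2 fold changes of Prdx1, Prdx2, Prdx3, Prdx4, Prdx5, Txn1 and Txnrd2 kept their direction under all 15 alternatives that gave one.

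Estimates near 0 changed sign. Txn2 was -0.007 after the length correction on the table's length and -0.006 to 0.32 with 1 library left out, Txnrd1 was -0.18 and -0.23 after the 2 length corrections and -0.12 to 0.31 with 1 library left out, and Prdx6 was -0.44 to 0.003 with 1 library left out. The difference in the Prdx3 to Prdx1 ratio was 0.18 after the length correction and -0.41 to 0.16 with 1 library left out, and that of Prdx3 to Prdx2 was 0.21 and -0.41 to 0.17. The cause of these changes was not tested. No paired analysis was possible because the labels do not give the animal, so it is not known whether libraries of the 2 sites share mice.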
